A study of Mus musculus with 6 samples.

Results

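Mitochondrial ribosomal protein genes were compared between the livers of mice fed a ketogenic diet and those of mice fed chow. The genes were chosen by name alone, as every gene with a single array annotation symbol that starts with Mrpl or Mrps followed by a number, which gave 76 of the 18193 genes with such a symbol. Where a gene had several probe sets, the short sets of oligonucleotides that each report a transcript on the array, the one with the highest mean signal over all 6 arrays stood for it. Of the 76, 47 carry an Mrpl name and 29 an Mrps name. All 76 passed the filter on low signals, which removed probe sets whose mean lay under the median probe set (10.2 in linear units).

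The mice were C57BL/6, an inbred laboratory strain, 8 weeks old at the start, and ate chow (Labdiet 5008) or the ketogenic food F3666 for 6 weeks, with free access to food until the livers were taken in the morning. Total liver RNA was hybridised to 3 arrays per diet, and the design text names RNA of 2 to 3 animals per group. Sex is not given, nor whether each array carried a single animal or a pool. The p-values therefore reflect the scatter among these arrays alone, some of which may be technical.

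The mitochondrial ribosome sits in the mitochondrial matrix and translates the few proteins that mitochondrial DNA still encodes, all of them subunits of the respiratory chain and of ATP synthase. Its RNAs come from mitochondrial DNA, but every one of its proteins is encoded in the nucleus, made in the cytosol and imported. Mrps genes name proteins of the small subunit, which binds messenger RNA and decodes it, and Mrpl genes those of the large subunit, which joins amino acids. In liver, a tissue rich in mitochondria, the ribosome supplies the core of the complexes that take up the electrons released by fat breakdown. The names are historical: Mrps18a and Mrps30 belong to the large subunit, and Mrps36 is now known as a component of the 2-oxoglutarate dehydrogenase complex and not of the ribosome. With these placed, the genes comprised 26 of the small subunit, 49 of the large subunit and Mrps36.

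Promoters of many of these genes hold at least 1 of 3 motifs, and those of others hold none. The sequences below show motif copies in 5 members that the results return to. Mrps25, Mrps15 and Mrps6, to which the results also return, held none. RefSeq (GRCm38.p6) gave a promoter, 250 bases before to 50 after a start site, for 67 of the 76 genes. The motifs of 3 factors known for nuclear genes of mitochondrial proteins were searched on both strands: CCGGAAG of the ETS family, to which GABPA belongs, that of NRF-1 (GCGCA, any base, then GCGC) and AAGATGGC of YY1. In the lines below the 250 bases before the start site are given 5′ to 3′ in the direction of transcription, with motif copies in capitals.
Mrpl39, chr16:84735245-84735494, minus strand, NRF-1 motif from base -125: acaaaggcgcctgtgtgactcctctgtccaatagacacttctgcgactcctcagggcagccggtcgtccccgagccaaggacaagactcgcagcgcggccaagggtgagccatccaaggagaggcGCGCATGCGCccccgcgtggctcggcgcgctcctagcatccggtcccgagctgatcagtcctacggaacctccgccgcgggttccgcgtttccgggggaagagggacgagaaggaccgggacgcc
Mrpl12, chr11:120484387-120484636, plus strand, NRF-1 motif from base -81 on the opposite strand: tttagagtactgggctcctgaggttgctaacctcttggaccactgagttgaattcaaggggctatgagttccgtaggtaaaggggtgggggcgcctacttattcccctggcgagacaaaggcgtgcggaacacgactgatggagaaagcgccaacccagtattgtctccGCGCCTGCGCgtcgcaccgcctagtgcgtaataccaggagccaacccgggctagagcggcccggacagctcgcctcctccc
Mrpl52, chr14:54426659-54426908, plus strand, ETS motif from base -47 on the opposite strand: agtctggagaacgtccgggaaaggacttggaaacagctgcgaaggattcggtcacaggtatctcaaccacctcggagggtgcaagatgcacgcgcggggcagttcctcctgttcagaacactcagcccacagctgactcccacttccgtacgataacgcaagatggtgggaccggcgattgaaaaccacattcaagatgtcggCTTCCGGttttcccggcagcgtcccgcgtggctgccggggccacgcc
Mrps18a, chr17:46110754-46111003, plus strand, ETS motif from base -26: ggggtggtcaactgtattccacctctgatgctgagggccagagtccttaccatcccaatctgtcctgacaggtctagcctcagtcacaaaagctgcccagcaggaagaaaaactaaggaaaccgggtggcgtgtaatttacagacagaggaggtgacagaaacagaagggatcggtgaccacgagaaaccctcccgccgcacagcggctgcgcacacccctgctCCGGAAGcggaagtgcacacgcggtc
Mrpl36, chr13:73330759-73331008, plus strand, YY1 motif from base -30 on the opposite strand: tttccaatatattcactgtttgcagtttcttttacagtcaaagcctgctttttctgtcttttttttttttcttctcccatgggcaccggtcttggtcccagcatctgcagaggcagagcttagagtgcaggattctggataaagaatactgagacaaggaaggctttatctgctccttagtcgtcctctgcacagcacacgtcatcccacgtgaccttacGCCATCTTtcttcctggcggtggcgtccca
Mrpl39 had the highest signal of the members and Mrpl12 is a stalk protein of the large subunit. Mrpl52 and Mrpl36 had the most positive and the most negative log2 change, and Mrps18a did not overlap between the diets. Mrpl52 and Mrps18a each held a further motif copy just after the start site, outside the bases shown.

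The ETS motif was in the promoter window of 25 of the 67 members (37.3%), against 9.93% of all 27025 genes in the promoter table and 12.9% of its 17491 protein-coding genes. The NRF-1 motif was in 12 members (17.9%), against 5.19% of all genes and 7.17% of protein-coding genes. The YY1 motif was also in 12 (17.9%), against 3.19% and 3.57%. The palindromic NRF-1 form, with T as the free base, was in 3 members, among them Mrpl39. At least 1 of the 3 motifs was in 41 members (61.2%), against 16.4% of all genes and 21.0% of protein-coding genes, and no copies of different motifs overlapped in a member. A match is a description of letters and not a bound site. Of genes for cytosolic ribosomal proteins 66.7% held at least 1 of the motifs, and of genes for oxidative phosphorylation subunits 54.5%. The median log2 change was 0.10 in the 41 members with a motif and 0.13 in the 26 without.

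No mitochondrial ribosomal protein gene passed the test of a difference between the diets. In limma's test with Benjamini-Hochberg adjustment over 11858 genes, 0 of 76 were past an adjusted p of 0.05, where 6.6% of all genes tested were higher and 0.86% lower on the ketogenic diet (7.46% in either direction). The smallest adjusted p of a member was 0.156. At an unadjusted p under 0.05, 4 members were higher and 0 lower, against 19% and 4.05% of all genes. Log2 changes, ketogenic minus chow, ran from -0.28 to 0.75, and 69 of the 76 were smaller than 0.5 in size. The median was 0.13, with a middle range of -0.01 to 0.28, where all genes tested had a median of 0.24 and a middle range of -0.07 to 0.55.

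The precision of these arrays bounds what an uncalled change means. The standard error of a member's log2 change was between 0.226 and 0.394, and the smallest change called in any gene by this fit was 0.882. The 95% interval lay wholly within a 2-fold change, log2 -1 to 1, for 65 of the 76 members, and 46.2% of all genes tested had an interval that narrow and central. For the other 11 members the upper end lay above 1, so their intervals held a doubling, and no member's interval reached below -1. The interval excluded 0 for 4 members, Mrpl52, Mrpl49, Mrps18a and Mrps25, before any adjustment for the number of genes. All these intervals and counts are for array scaling as deposited. They leave out the uncertainty of scaling, which moved the changes as described below.

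**Figure D1:**
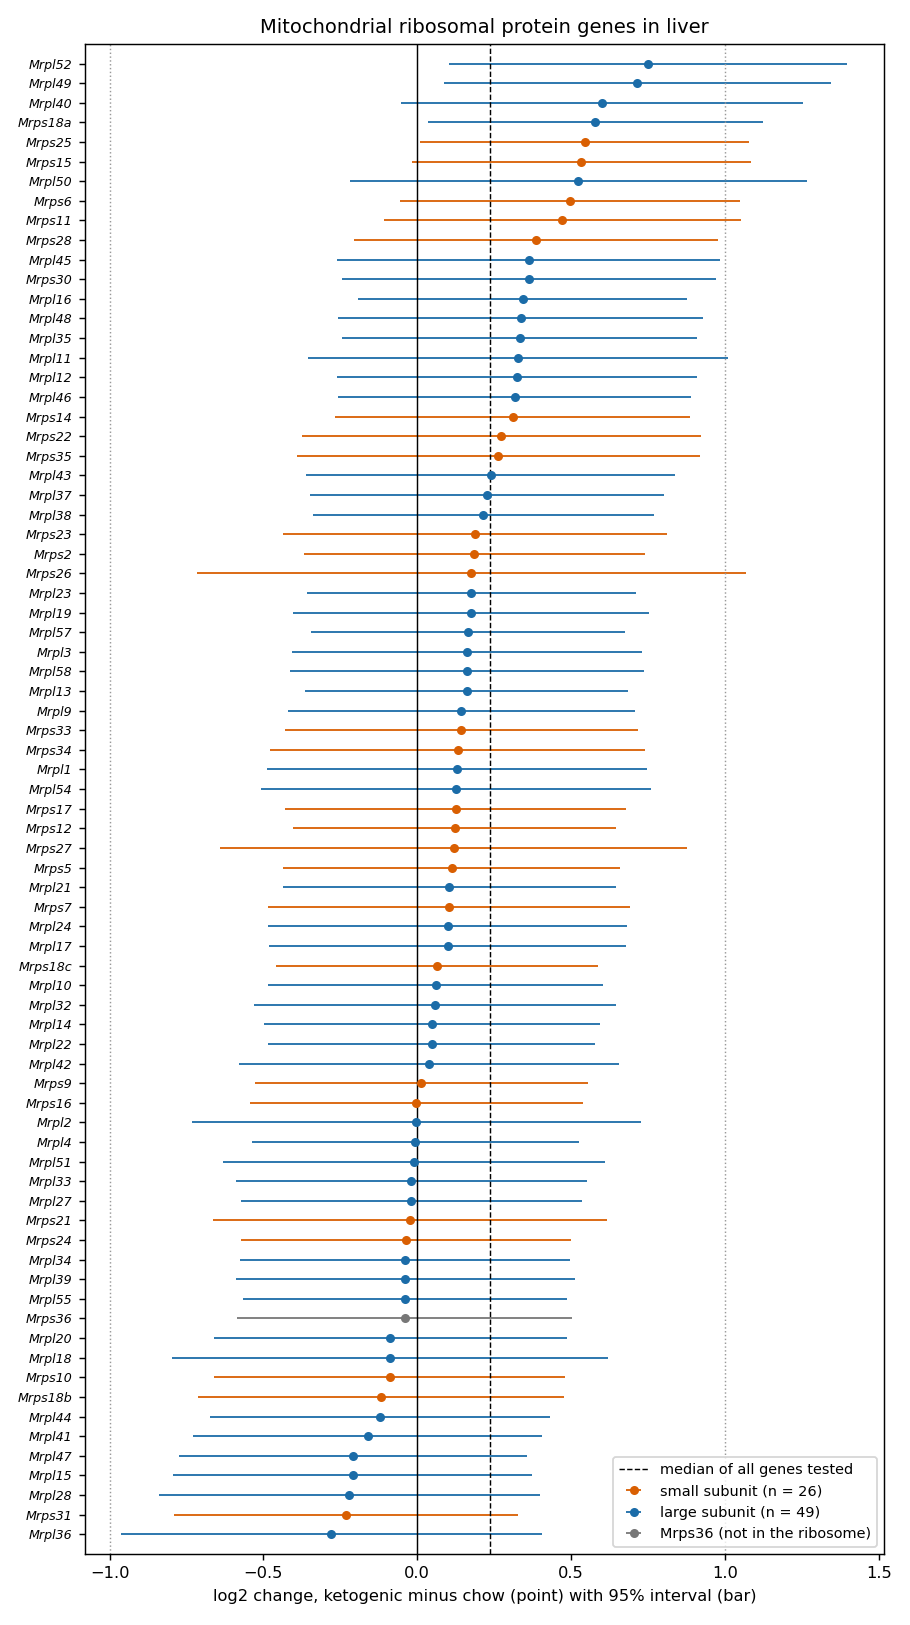
Log2 change of each of the 76 genes, ketogenic minus chow, on the horizontal axis, ordered by size; points are estimates from 3 arrays per diet, bars 95% intervals, colours the subunit, the dashed line the median of all genes tested (0.24) and dotted lines a 2-fold change. The estimates ran from -0.28 for Mrpl36 to 0.75 for Mrpl52. The 4 most positive estimates were of large subunit genes, and small subunit genes lay between -0.23 and 0.54.

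The members moved together from array to array, and they moved with the level of the array. Within the chow diet, 59 of 76 members had their highest signal on array 1 and 51 their lowest on array 3. Within the ketogenic diet, 58 were highest on array 2 and 70 lowest on array 3. The 2% trimmed mean signal of the whole array had the same extremes: chow arrays 1, 2 and 3 stood at 53.5, 46.6 and 40.3, and ketogenic arrays 1, 2 and 3 at 55.4, 61 and 45.9. The median within-diet SD of a member was 0.25 on the log2 scale as deposited and 0.142 after every array was scaled to a common trimmed mean. For all genes tested the same step took it from 0.329 to 0.26.

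**Figure D2:**
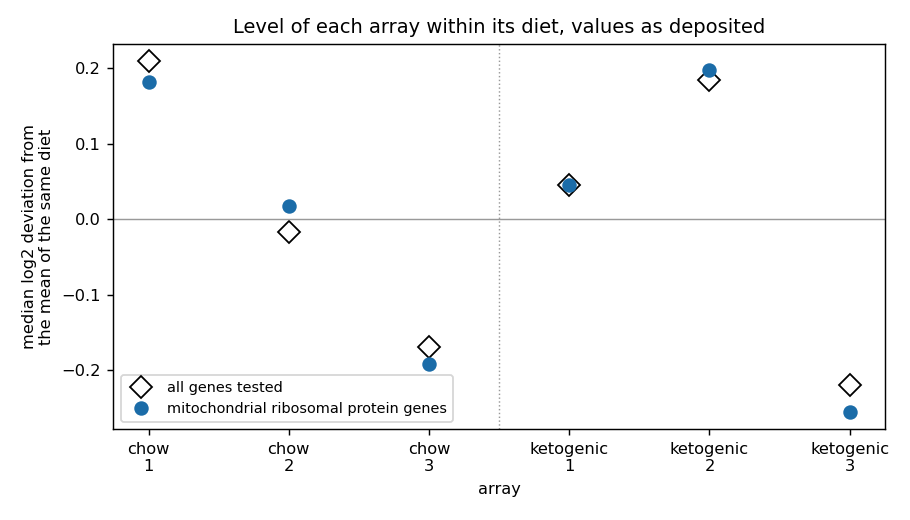
Median log2 deviation of each array from the mean of its own diet, with open diamonds for all 11858 genes tested and filled circles for the 76 mitochondrial ribosomal protein genes, values as deposited. On chow array 1 and ketogenic array 2 both lay above 0 (members 0.18 and 0.20), and on chow array 3 and ketogenic array 3 both lay below (members -0.19 and -0.26).

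The sign of a small change rested on how arrays were scaled. As deposited, 53 of the 76 members had a positive log2 change, against 69.9% of all genes tested. Scaled to a common trimmed mean 24 were positive and the members' median was -0.083, with quantile normalization 21 were positive and the median was -0.122, and scaled to the hybridization controls all 76 were positive with a median of 0.487. The median of all genes tested moved alike, to 0.0281, -0.00472 and 0.599, so the members' median lay below it by 0.111 as deposited and by 0.117 with quantile normalization. In each of these fits 54 or 55 of the 76 members lay below the median of all genes. Scaling each array by a single factor shifts genes alike, so of these fits only quantile normalization could move that gap. The members' median minus that of all genes was -0.0626 with a pseudocount of 16 added before log2, with 51 members below. Without the filter on low signals it was -0.0599, with 50 below. Scaled to the hybridization controls, which are transcripts of bacterial and phage origin added for the hybridization, 11 members rose, where 31.8% of all genes did. As deposited, with the trimmed mean and with quantile normalization 0 members changed.

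Facts of the arrays that moved with diet stand here once. The hybridization controls read 641.7 ± 8.55 on chow and 499.5 ± 18.4 on ketogenic arrays (SD, n = 3 each, two-sided exact permutation p = 0.1, the smallest that 3 against 3 arrays allow), and actin's 3′ over 5′ signal, which is read for RNA quality, was 2.08 ± 0.108 and 1.58 ± 0.0817 (exact permutation p = 0.1). The same ratio of Gapdh was 0.839 ± 0.115 on chow and 0.793 ± 0.0187 on ketogenic arrays (exact permutation p = 0.9). Hepatocyte markers were bright on every array: the summed signal of 8 hepatocyte genes was 41060 to 44050 on chow and 29870 to 34990 on ketogenic arrays, with 2 of 8 lower, Cps1 and Tat. Of 10 macrophage markers 8 were higher, with a summed signal of 1189 to 1502 on chow and 4338 to 5768 on ketogenic arrays, and of 9 markers of matrix-producing stellate cells 6 were higher (281 to 509 and 1391 to 2282). Itgam and Des of these lists lay under the filter. Of 8 endothelial markers 1 was higher, and of 7 lymphocyte and 5 cholangiocyte markers 0, with 3 of each above the filter. Their summed signals were also higher on ketogenic arrays, without overlap. Endothelial sums were 574 to 864 on chow and 933 to 1268 on ketogenic arrays. Lymphocyte sums were 40.7 to 66 and 91 to 101.2, and cholangiocyte sums 57 to 77.1 and 87.5 to 114.7, in the same order. In whole liver, fewer cells of a type and less RNA per cell cannot be told apart, and the part of these shifts in the members' values was not tested.

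Mrpl52, a large subunit protein with no bacterial counterpart whose promoter is shown above, had the most positive log2 change. Chow arrays 1, 2 and 3 gave signals of 257, 169.5 and 142, and ketogenic arrays 1, 2 and 3 gave 286, 368 and 281. All ketogenic arrays lay above all chow arrays, with chow array 1 close to the lowest of them. The log2 change was 0.75 ± 0.29 (SE; 95% interval 0.10 to 1.40) with adjusted p = 0.156 in limma's test, a fold of 1.68 at the estimate. It passed the threshold under 5 of the alternatives tried (adjusted p from 0.0203 to 0.0443) and not under the rest (up to 0.747). Other probe sets of Mrpl52 gave log2 changes of 0.45 and 0.16, neither past the threshold.

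Mrpl49, likewise of the large subunit and without a bacterial counterpart, came next. Chow gave 85.6, 77.1 and 51.7, the ketogenic diet 116, 136 and 96.1. Every ketogenic array lay above every chow array. The estimate was 0.71 ± 0.28 (SE, log2; adjusted p = 0.162). Its other probe set, whose diets overlapped, had a log2 change of 0.10.

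Mrps18a is 1 of 3 relatives of bacterial protein S18, and sits in the large subunit, while Mrps18b and Mrps18c sit in the small one. Signals of 181, 154 and 126 on chow and of 216, 249.9 and 217 on the ketogenic diet did not overlap, and the log2 change was 0.58 ± 0.24 (SE, adjusted p = 0.19). Mrps18b read 281, 271 and 239 on chow and 209, 327 and 208.5 on ketogenic arrays, which overlapped (log2 change -0.12 ± 0.26, adjusted p = 0.822). Mrps18c read 332, 264 and 265 on chow and 302, 323 and 272 on ketogenic arrays, which overlapped too (0.06 ± 0.23, adjusted p = 0.893). The difference between the 3 relatives was not tested.

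Of the small subunit, Mrps25, Mrps15 and Mrps6 were higher on every ketogenic array than on any chow array, without passing the test. Mrps25, which has no bacterial counterpart, read 58.3, 59.6 and 52.9 on chow and 87.9, 94.4 and 68.7 on ketogenic arrays, a log2 change of 0.54 ± 0.24 (adjusted p = 0.207). Mrps15 and Mrps6, named after their values were seen, are the counterparts of bacterial S15 and S6, which lie near each other in the small subunit. Mrps15 read 133, 99.3 and 98.2 on chow and 158, 177 and 140.1 on ketogenic arrays, which is a difference of 0.53 ± 0.24 in log2 (adjusted p = 0.232); the other probe set kept gave 0.54. Mrps6 read 94.3, 80.9 and 95.7 on chow and 135, 148 and 103 on ketogenic arrays, a change of 0.50 ± 0.24 (adjusted p = 0.263), and its other probe set gave 0.24.

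With Mrpl52, Mrpl49 and Mrps18a these made 6 members whose diets did not overlap upward and 0 downward, where 24.1% and 5.17% of all genes tested did so. After scaling to a common trimmed mean 6 members lay apart upward and 13 downward (7.89% and 17.1%), against 19.4% and 14.7% of all genes. Of the first 6, Mrpl52, Mrpl49, Mrps18a, Mrps25 and Mrps15 stayed apart and Mrpl40 took the place of Mrps6. Mrpl40, a large subunit protein without a bacterial counterpart, had read 93.7, 83.5 and 59.1 on chow and 123, 146.5 and 89.4 on ketogenic arrays, where chow array 1 overlapped with ketogenic array 3 (log2 change 0.60 ± 0.29, adjusted p = 0.253).

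**Figure D3:**
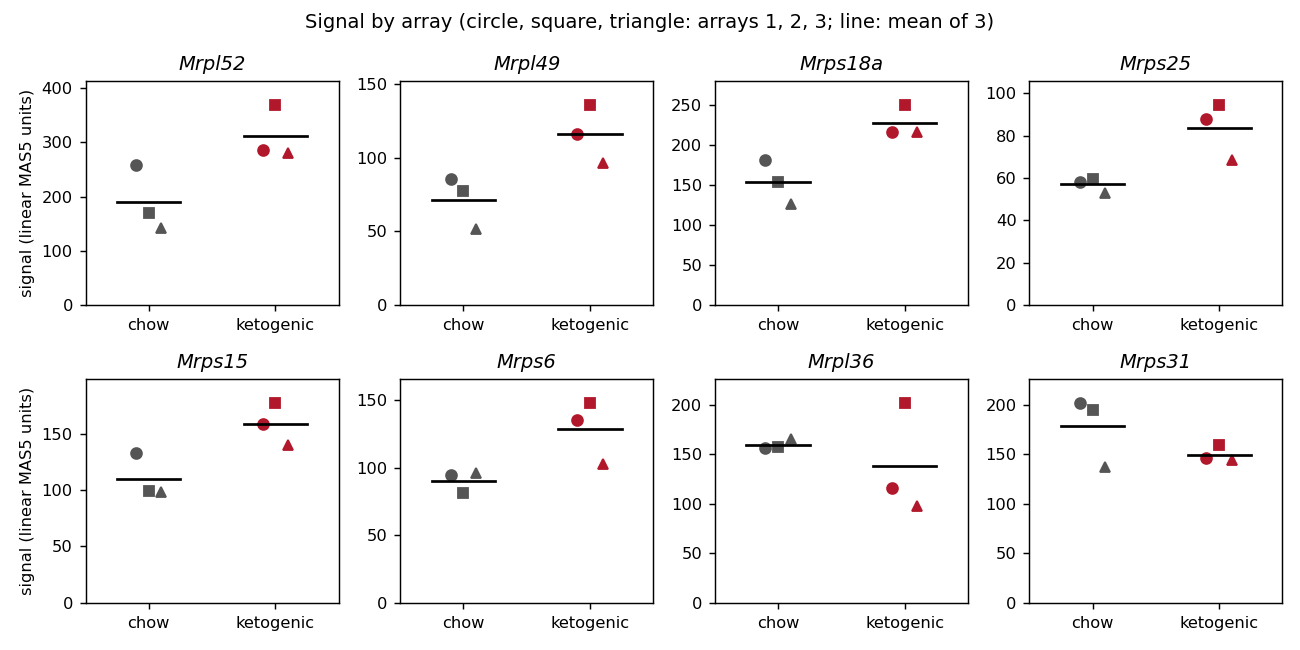
Signal on each array, in linear MAS5 units on a vertical axis that starts at 0, for the 6 genes whose diets did not overlap and for Mrpl36 and Mrps31; circle, square and triangle are arrays 1, 2 and 3 and the line is the mean of 3. Mrpl52 runs from 142 to 257 on chow and from 281 to 368 on the ketogenic diet, while for Mrpl36 the ketogenic arrays span the chow arrays.

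The most negative log2 changes were small. Mrpl36, a very short protein of the large subunit that is conserved from bacteria, read 157, 158 and 165 on chow and 116, 202 and 97.6 on ketogenic arrays. Chow arrays lay close together, and ketogenic array 2 lay above them and the other ketogenic arrays below. Its log2 change was -0.28 ± 0.30 (SE; 95% interval -0.96 to 0.40, adjusted p = 0.613).

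Mrps31 of the small subunit read 202, 195 and 137 on chow and 146, 159 and 144 on ketogenic arrays, overlapping through chow array 3 (log2 change -0.23, adjusted p = 0.607). Mrpl28, Mrpl15 and Mrpl47, all with bacterial counterparts in the large subunit, followed with -0.22, -0.21 and -0.21. Other probe sets of Mrpl28 had the opposite sign, with log2 changes of 0.04 and 0.08. After trimmed mean scaling Mrps31, Mrpl15 and Mrpl47 lay wholly below chow, with log2 changes of -0.44, -0.42 and -0.42 (adjusted p = 0.13, 0.125 and 0.106 in limma's test). For Mrpl15 the scaled signals were 372, 405.5 and 378 on chow and 325, 279.5 and 263 on ketogenic arrays. This gene had 8 probe sets, and of the 7 kept ones 5 had a negative log2 change as deposited, the lowest -0.94 on a dim probe set (mean signal 28.2 on chow and 14.3 on the ketogenic diet, adjusted p = 0.118 in the fit of all probe sets).

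By role, 0 of the members passed the test in any functional part of the ribosome. In the stalk that recruits translation factors to the large subunit, Mrpl12, the counterpart of bacterial L7/L12, which is also known to bind mitochondrial RNA polymerase, read 467, 505 and 358.5 on chow and 606, 618 and 443 on ketogenic arrays. Those values overlapped only through ketogenic array 3 (log2 change 0.32 ± 0.26, adjusted p = 0.488). Mrpl11 and Mrpl10 at the base of the stalk had log2 changes of 0.33 and 0.06. Mrpl45, which anchors the ribosome to the inner membrane where its products are inserted, had 0.36 ± 0.28 (adjusted p = 0.467). Mrpl3 and Mrpl44, in which human mutations cause cardiomyopathy, had 0.16 and -0.12.

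In the small subunit, Mrps12, a protein of the decoding centre, read 275, 267 and 245 on chow and 297, 323.5 and 242 on ketogenic arrays. The lowest and the highest value were both ketogenic (log2 change 0.12 ± 0.23, 95% interval -0.40 to 0.65, adjusted p = 0.791). Mrps5, known from work in mice and worms that linked low levels of this gene to long life, read 108, 83.7 and 84.2 on chow and 105, 109 and 83.8 on ketogenic arrays, so the diets overlapped throughout (0.11, adjusted p = 0.816). Mrps16, Mrps22 and Mrps34, in which human mutations cause combined deficiency of respiratory complexes, had -0.00, 0.27 and 0.13.

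Among the members with the highest signals, Mrpl39, which resembles threonyl-tRNA synthetase, read 913.5, 629.9 and 799.6 on chow and 755, 818 and 686 on ketogenic arrays, with a log2 change of -0.04. All ketogenic arrays lay inside the chow range. Mrpl51 and Mrpl16 had -0.01 and 0.34, and the lowest signals were those of Mrpl33 (-0.02) and Mrps27 (0.12). Signals of different probe sets do not rank transcripts by amount. Mrps36, the member that is not part of the ribosome, had -0.04 ± 0.24 (SE).

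The subunits had like medians, and their difference was not tested. The median log2 change was 0.13 in the 26 small subunit genes and 0.13 in the 49 large subunit genes, and 20 and 33 of them were positive. Counterparts of bacterial proteins had a lower median than the proteins that mitochondria added later: 0.10 over 46 genes and 0.19 over 29. The median of the second group was the higher under all 18 alternatives, but these refit the same arrays. Scaling each array by a single factor shifts the groups alike, and several other alternatives left both medians unchanged. The 18 are therefore no independent support for a difference. In the large subunit the medians were 0.06 over 29 and 0.22 over 20 genes, and in the small subunit 0.11 over 17 and 0.18 over 9. The difference between these groups was not tested.

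Mrps11 and Mrpl46, named after their positions were seen, are transcribed in opposite directions from start sites 42 bases apart on chromosome 7 (GRCm38.p6, 78783131 and 78783089). Mrps11 read 60.9, 72.2 and 53.5 on chow and 92.9, 99.4 and 67.9 on ketogenic arrays. Mrpl46 read 148, 147 and 133 on chow and 194, 212 and 136 on ketogenic arrays. In both genes only ketogenic array 3 overlapped with chow, and the log2 changes were 0.47 ± 0.26 and 0.32 ± 0.25 (adjusted p = 0.308 and 0.488).

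The probe sets that were not chosen gave 0 calls as well. Among 80 further probe sets of the members 53 passed the filter, and 0 of these were past an adjusted p of 0.05 in limma's fit of all probe sets, with 0.118 the lowest. The share of all probe sets past it in that fit is not given here, and 7.46% of genes were in the fit by gene. Of the 53, 36 had the sign of the chosen probe set. As deposited, 69.9% of all genes tested had a positive log2 change, and the agreement in sign was not tested. Mrps24, the counterpart of bacterial S3, was named after its values were seen. Its chosen probe set read 284 on chow and 279 on the ketogenic diet, and the other 259 and 175, with no overlap downward and a log2 change of -0.58 (adjusted p = 0.239). Both of these probe sets are of a kind that can bind several transcripts.

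Elsewhere in the mitochondrial translation machinery 0 genes passed the test. Of 4 ribosomal proteins with other symbols, Dap3, Ptcd3, Chchd1 and Gadd45gip1, 0 changed, and Chchd1, with the highest signal, had a log2 change of -0.35. Of 11 tested translation factors 0 changed and their median was 0.21. Gfm1, the elongation factor that moves the ribosome along, had 0.24 and Tufm, which delivers aminoacyl-tRNA, 0.21. Mrrf, the ribosome recycling factor, was named after its values were seen, since its diets did not overlap. It was the only 1 of the 11 to lie apart upward, where 24.1% of all genes tested did. It read 106, 90.9 and 103 on chow and 164, 176 and 134 on ketogenic arrays (log2 change 0.65 ± 0.23, adjusted p = 0.131).

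Of 18 tested mitochondrial aminoacyl-tRNA synthetases and partners 0 changed, with a median of 0.16, and Fars2, with the highest signal, had 0.15. Of 23 assembly and rRNA modification genes 0 changed (median 0.20), and Rbfa, a small subunit assembly factor with the highest signal, had 0.35. Of 15 genes of mitochondrial transcription and RNA processing 0 changed (median 0.15), with Polrmt, the RNA polymerase, at 0.19 and Tfam, which packages mitochondrial DNA, at 0.30. Hsd17b10, a dehydrogenase that is also a subunit of mitochondrial RNase P, had the highest signal of that list. It read 998.5, 1693 and 823 on chow and 616, 538 and 369.8 on ketogenic arrays, with no overlap and chow array 2 far above the others. The log2 change was -1.17 ± 0.33 (adjusted p = 0.0698), past the threshold under 7 of the alternatives and -0.87 without chow array 2 (adjusted p = 0.185).

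Of 9 regulators of nuclear genes for mitochondrial proteins 0 changed, with a median of 0.06. Over the alternatives that median ran from -0.252 with quantile normalization to 0.419 with hybridization control scaling, and was 0.296 with the mean of probe sets. The coactivator Ppargc1a had a log2 change of -0.13, Esrra -0.02, Nrf1, whose motif is in the Mrpl39 and Mrpl12 promoters above, 0.35, Gabpa 0.15 and Yy1 -0.11. All of these intervals include 0. With array weights Nrf1 passed the threshold (0.72, adjusted p = 0.0435 in limma's test), where 24.6% of all genes tested were higher. Factor transcripts do not measure factor activity.

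Of 13 mitochondrial chaperones and proteases 1 rose and 0 fell (median 0.32), where 6.6% of all genes tested rose and 0.86% fell. The 1 that rose was Afg3l1, a subunit of the m-AAA protease, the enzyme known to mature the ribosomal protein Mrpl32. Afg3l1 read 58.6, 64.9 and 55 on chow and 125, 116 and 96.3 on ketogenic arrays, with no overlap (log2 change 0.91 ± 0.23, adjusted p = 0.0476). The call did not hold in 10 of 18 alternatives, where adjusted p reached 0.195, and was lost when any 1 array was left out (0.0616 to 0.195). Partner subunits Spg7 and Afg3l2, named after their values were seen, had 0.95 (adjusted p = 0.139) and 0.42, and Mrpl32, named for this link, read 159.5, 147.5 and 107 on chow and 137, 168 and 124 on ketogenic arrays, which overlapped (0.06).

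Genes of other large complexes were compared as well. Of 40 tested cytosolic ribosomal protein genes 0 changed, with a median log2 change of 0.14. Of 76 tested nuclear subunits of oxidative phosphorylation, whose complexes are completed by the products of the mitochondrial ribosome, 0 changed, with a median of -0.11 and 59 of 76 negative, where 23 of the 76 mitochondrial ribosomal protein genes were. As deposited, diets lay apart downward for 13 of these subunits, 1 cytosolic ribosomal protein gene and 0 of the members, against 5.17% of all genes tested. Upward they did for 0, 9 and 6, against 24.1%. With the trimmed mean scaling 13 members lay apart downward (17.1%), against 14.7% of all genes. That count of the other families is not given here, so the families are not compared under this scaling by overlap. Under the trimmed mean scaling the medians were -0.0679 for cytosolic ribosomal proteins, -0.083 for the members and -0.319 for oxidative phosphorylation. Of the 76 oxidative phosphorylation subunits 7 then fell, where 361 of all 11858 genes tested did. The gap between the families was not tested.

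**Figure D4:**
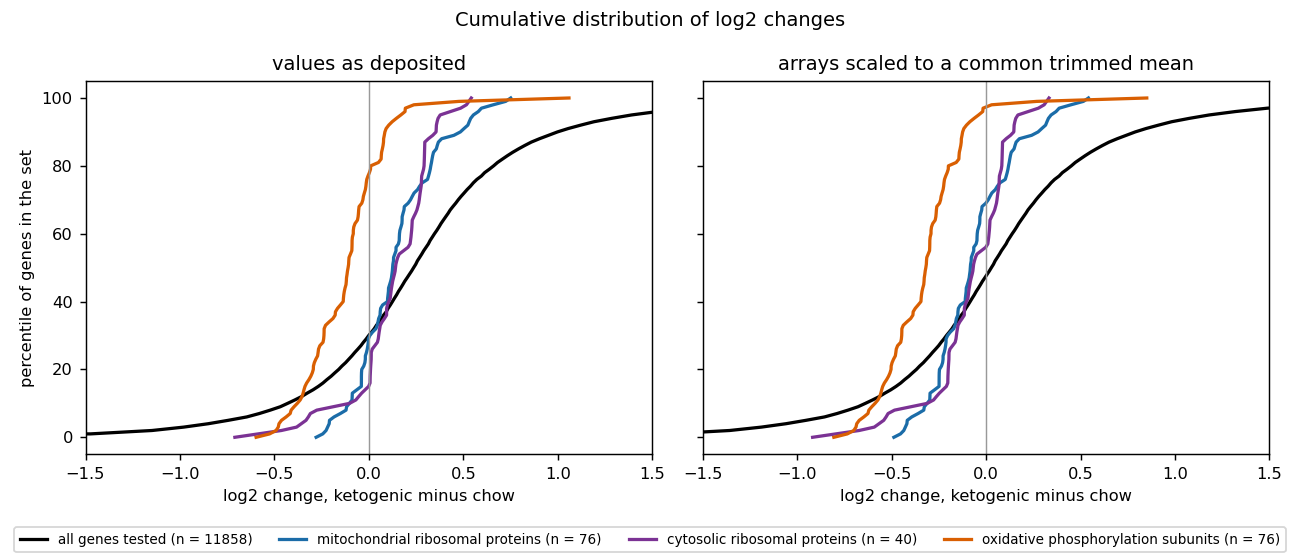
Cumulative distribution of log2 changes, ketogenic minus chow, as percentile of the genes in each set, for values as deposited (left) and arrays scaled to a common trimmed mean (right); the axis is cut at -1.5 and 1.5. The 3 families rise more steeply than all genes tested, and the curve of mitochondrial ribosomal proteins (median 0.13 and -0.083) lies to the right of that of oxidative phosphorylation subunits (-0.11 and -0.319) over most of its height.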

How the data were processed

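Liver RNA was hybridised to 6 Affymetrix arrays of a single colour. Each deposited value is a linear intensity for a probe set; GCOS and MAS5 are named in the submitters' processing notes as the authors' tools, with settings and scaling target not given there. The members, gene lists and tests were chosen with earlier results of these data known.

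Of 45101 probe sets 64 were controls, 34958 had 1 annotation symbol, 932 several and 9211 none listed. All 76 member symbols matched RefSeq's. Signals were raised to the 10th percentile (1.1) and taken to log2, array scaling was left as deposited, and probe sets at or above the median log2 mean of 3.35 (signal 10.2) were kept. Each of 11858 genes had 1 probe set. The diets were tested against each other in limma 3.58.1 by lmFit and eBayes (R 4.3.3, 4 residual and 4.93 prior degrees of freedom), two-sided, adjusted by Benjamini-Hochberg, threshold 0.05. The fit was tested on simulated data with independent noise, no shifts of whole arrays and changes far larger than any member's. That test does not bear on changes as small as those of the members. All members lay above the background of 10.8, from 27 bacterial control probe sets, on every array. Arrays give no read depth; their number limits the precision. Replicates were numbered in order of deposition.

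Named members were any past the threshold, the 5 most positive and 5 most negative changes, the 4 highest and 2 lowest signals, and 15 fixed for their role; of each list, up to 3 genes past the threshold or the brightest, and 7 always named. Others are marked where named. Alternatives covered scaling, floor, filter, prior, array weights, probe sets and leaving out each array.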

Additional observations from a re-analysis of the deposited data

How the results depend on the processing

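No paired analysis was possible because the labels give the arrays no shared replicate numbers. The count of 0 members higher became 11 with hybridization control scaling (31.8% of all genes were higher), 8 with array weights (24.6% of all genes; the estimation of weights stopped before its tolerance), 2 with a filter at the 75th percentile (Mrpl52 and Mrpl49, where 13.3% of all genes were higher) and 1 each with a pseudocount of 16 (11.3% of all genes) and a trended robust prior (10.2%), both Mrpl52. It stayed 0 under the other alternatives, among them leaving out any 1 array, and 0 members were lower under any of the 18. The cause was not tested. The members' median log2 change of 0.125 was -0.122 with quantile normalization, -0.083 with a common trimmed mean and 0.487 with hybridization control scaling, and ran from 0.0248 to 0.25 without 1 array. Signs of single members past no threshold are not settled: 29 of 76 changed with the trimmed mean and 32 with quantile normalization. Of the related lists, with 4, 11, 18, 23, 15, 9, 13, 40 and 76 genes tested, 1 gene was higher, where 6.6% of all genes were. This count became 2 with a common array median (7.88% of all genes), 26 with hybridization control scaling and 12 with array weights. It became 3 each with the pseudocount, the filter at the 75th percentile and the trended prior. With quantile normalization (4.92% of all genes), no filter (1.24%), the mean of probe sets (6.43%) and probe sets of one transcript (5.49%) it was 0. Where no share is given here, that of all genes stands above. The count ran from 0 to 1 without 1 array, where 3.58% to 6.97% of all genes were higher. The 0 lower became 9 with the common trimmed mean, 3 each with the common array median, quantile normalization and array weights, and 1 each with a floor of 10, the pseudocount, the 75th percentile filter and the trended prior. Of all 11858 genes tested, 361 were lower with the common trimmed mean, 278 with the common array median, 327 with quantile normalization and 552 with array weights. With the floor of 10, the pseudocount and the trended prior 219, 277 and 232 were. With the 75th percentile filter 213 of 6919 were. In the fit reported, no gene with a log2 change smaller than 0.882 in size was called; some alternatives called smaller ones, such as 0.51 for Mrps18a with array weights.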
